A study of Mus musculus with 12 samples.

Results

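The set described here holds 33 genes of the integrated stress response and of endoplasmic reticulum (ER) stress, chosen by gene symbol from a written list. The list uses no measured value in its rule but was drawn up with earlier results of these data known. Of these, 31 were measured by a probe set annotated to that 1 symbol, among 19934 genes tested, and each had 1 probe set. They comprise 27 genes of the ATF4 pathway and 4 ER chaperone and XBP1 genes (Herpud1, Hspa5, Xbp1 and Dnajb9). Pycr1 and Gdf15 were listed but not analysed here.

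The integrated stress response begins when kinases phosphorylate the translation factor eIF2, which slows protein synthesis in general while the mRNA of the transcription factor ATF4 is translated more. ATF4, often paired with a C/EBP protein, then activates genes of amino acid synthesis, amino acid uptake and growth restraint. Of the kinases, GCN2 responds to uncharged tRNA and PERK to misfolded protein in the ER. The ER has further sensors, IRE1, which splices Xbp1 mRNA, and ATF6, and these raise chaperones and degradation factors instead. Arrays read transcripts and neither ATF4 translation nor Xbp1 splicing.

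RNA of whole kidney was measured on 12 arrays, 1 per mouse, in 3 genotype groups of 4. All were female mice of the C57BL/6 background, fed a high-protein diet for 2 months, and no age was stated in the labels. The mutants were Mut -/- ;TgINS-Alb-Mut. They lacked both alleles of Mut (now Mmut), which encodes methylmalonyl-CoA mutase of the mitochondrion, and carried a Mut transgene whose name denotes the albumin promoter, known for activity in hepatocytes. The controls were Mut+/- heterozygotes and Mut+/+ wild-type mice. Labels give the transgene to mutants alone, so what it does and what the missing enzyme does cannot be told apart. Patients without the enzyme have methylmalonic acidemia and often lose kidney function, and the study asked which kidney transcripts differ.

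Values are log2 of RMA signal, on which a difference of 1 is a doubling. Each difference below is a mean over 4 arrays minus a mean over 4 others, and its SE and adjusted p come from 1 limma fit of the 3 groups with Benjamini-Hochberg adjustment over all 19934 genes. A gene was called, and is said to have risen or fallen, at an adjusted p under 0.05. Array medians lay between 7.17 and 7.23. Mmut fell by 2.18 in mutants against wild type (two-sided exact permutation p = 0.0286, the smallest that 4 against 4 can give). Its heterozygote level was intermediate, lower than wild type by 0.62. Where its probes lie relative to the disruption and the transgene was not determined. The 7 markers of proximal tubule segments S1 and S2 averaged 12.09 to 12.58 on every array, as befits kidney tissue. Markers of some other cells were lower in mutants than in wild type. Of proximal tubule segment S3, 4 of 6 were called lower, and of the distal tubule 4 of 5. Podocytes had 3 of 5 and endothelium 3 of 8 called lower, where 6.69% of all genes were. The S3 list also held 1 positive difference, 0.52. Of the thick ascending limb 0 of 5 were called (9.66% of all genes). Of 6 collecting duct markers 1 was called higher and 1 lower (2.96% and 6.69% of all genes). The S3 markers averaged 8.78 to 9.51 on mutant arrays and 9.53 to 9.75 on control arrays. The part of these shifts in the members' values was not tested. Mutant replicate 3 stood apart on the first principal component, at -31.0 against -13.9 to -6.13 for the other mutants, and had the lowest level of the 5 distal tubule markers, 9.21, against 9.59 to 10.25 in the other mutants and 10.39 to 10.59 in controls. In whole tissue, fewer cells of a type and less RNA per cell cannot be told apart.

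Promoters of 3 members are shown, 250 bases before to 50 after the annotated start, since they carry the letters through which these branches are known to act. Sequences and coordinates are from RefSeq, assembly GRCm38.p6, and run 5′ to 3′ on the gene's strand. Capitals mark TGATGNAA, the core of the C/EBP-ATF element bound by ATF4, read on either strand in the first pair, and the ER stress element, CCAAT and CCACG with 9 bases between, in the third.
Asns, chr6:7693160-7693459, minus strand: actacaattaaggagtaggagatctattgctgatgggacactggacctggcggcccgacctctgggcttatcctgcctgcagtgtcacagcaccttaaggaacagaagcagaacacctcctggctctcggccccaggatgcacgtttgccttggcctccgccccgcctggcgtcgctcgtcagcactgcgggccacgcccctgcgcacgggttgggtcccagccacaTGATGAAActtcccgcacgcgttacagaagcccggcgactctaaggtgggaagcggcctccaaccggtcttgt
Chac1, chr2:119350992-119351291, plus strand: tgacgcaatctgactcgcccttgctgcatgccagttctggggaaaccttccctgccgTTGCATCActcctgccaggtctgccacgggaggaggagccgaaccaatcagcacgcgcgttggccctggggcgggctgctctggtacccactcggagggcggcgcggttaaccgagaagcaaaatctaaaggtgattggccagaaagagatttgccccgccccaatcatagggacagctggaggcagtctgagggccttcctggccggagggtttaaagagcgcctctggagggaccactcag
Hspa5, chr2:34771840-34772139, plus strand: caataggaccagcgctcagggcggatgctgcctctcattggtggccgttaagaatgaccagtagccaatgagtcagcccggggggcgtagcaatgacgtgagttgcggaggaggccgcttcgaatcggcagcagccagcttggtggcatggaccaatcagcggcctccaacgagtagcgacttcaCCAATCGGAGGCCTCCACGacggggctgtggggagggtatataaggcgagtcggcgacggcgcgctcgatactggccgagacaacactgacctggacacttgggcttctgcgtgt
The match began 23 bases before the start in Asns, 193 bases before it in Chac1 and 65 bases before it in Hspa5.

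TGATGNAA stood in the windows of 12 of the 28 measured members found in the promoter table, against 1304 of all 32851 promoters, or 3.97%. It was in 2 of 6 called members with a window, which included the ER genes Xbp1 and Dnajb9, and in 10 of 22 others. These others included the ER gene Herpud1, whose match began 112 bases before its start. The ER stress element was in Hspa5 alone among the 28 members, against 39 of all promoters, or 0.119%. For both elements a member was counted once if any window of its symbol matched, while promoters were counted singly. Windows around matches in 5 members that were not called are shown because they carry the same letters as the called pair, in capitals.
Slc7a11: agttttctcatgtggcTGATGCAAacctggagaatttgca
Nupr1: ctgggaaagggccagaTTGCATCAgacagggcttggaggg
Jdp2: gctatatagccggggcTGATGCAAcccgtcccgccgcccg
Trib3: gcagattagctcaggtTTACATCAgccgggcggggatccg
Fgf21: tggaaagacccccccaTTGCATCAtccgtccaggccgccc
In Trib3 the match began at base 15 after the start, and in the other 4 it lay before it, at 66 bases in Slc7a11, 110 in Nupr1, 33 in Jdp2 and 139 in Fgf21. Slc7a11 held a further match 47 bases before its start. A match is a description of letters and not a bound site. The table gave no window for Cth, Slc7a5 or Eif4ebp1.

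In mutant kidneys, part of the ATF4 pathway was higher than in wild type. Transcripts of 6 of its 27 measured genes rose and 0 fell, where 2.96% and 6.69% of all genes did. The 6 were Asns, Atf5, Chac1, Slc7a5, Eif4ebp1 and Atf4 itself. The ER genes were split, since Xbp1 rose, Dnajb9 fell, and neither Hspa5 nor Herpud1 was called. By group means, heterozygotes lay nearer to mutants in Xbp1 and Dnajb9 and nearer to wild type in each of the 6 ATF4 pathway genes. A difference between the sets was not tested.

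Over all 31 measured members, 8 were called in mutants against wild type, where 9.66% of all genes were. Of these, 7 were higher, against 2.96% of all genes, and 1 was lower, against 6.69%. All 4 mutant arrays lay above all 4 wild-type arrays for 8 members, each in the ATF4 pathway, where 5.35% of all genes did so. The median difference over the 27 ATF4 pathway genes was 0.17 (all genes, 0.00), and 26 had a positive value (51.4% of all genes). Over the 4 ER genes the median was 0.20, and 3 of their values were positive.

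Against heterozygotes, 4 members were called, where 2.54% of all genes were. They were Asns, Atf5, Eif4ebp1 and Slc6a9, each higher in mutants (1.07% of all genes), and 0 were lower (1.46% of all genes). The arrays of both groups stood apart upward for 10 members, against 4.04% of all genes. The median over ATF4 pathway genes was 0.18 (all genes, -0.01) and over the ER genes 0.02. The latter changed sign with the arrays used, from -0.05 without mutant replicate 3 to 0.05 without heterozygote replicate 2. Comparisons with wild type and with heterozygotes share the 4 mutant arrays, so their values are given side by side and are not independent.

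Against both controls at once, 7 ATF4 pathway genes had all 4 mutant arrays above all 8 control arrays (Atf4, Atf5, Trib3, Asns, Pck2, Slc7a5 and Eif4ebp1), where 2.11% of all genes did. None of the 4 ER genes did, which a share of 2.11% would mostly give for any 4 genes.

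**Figure D1:**
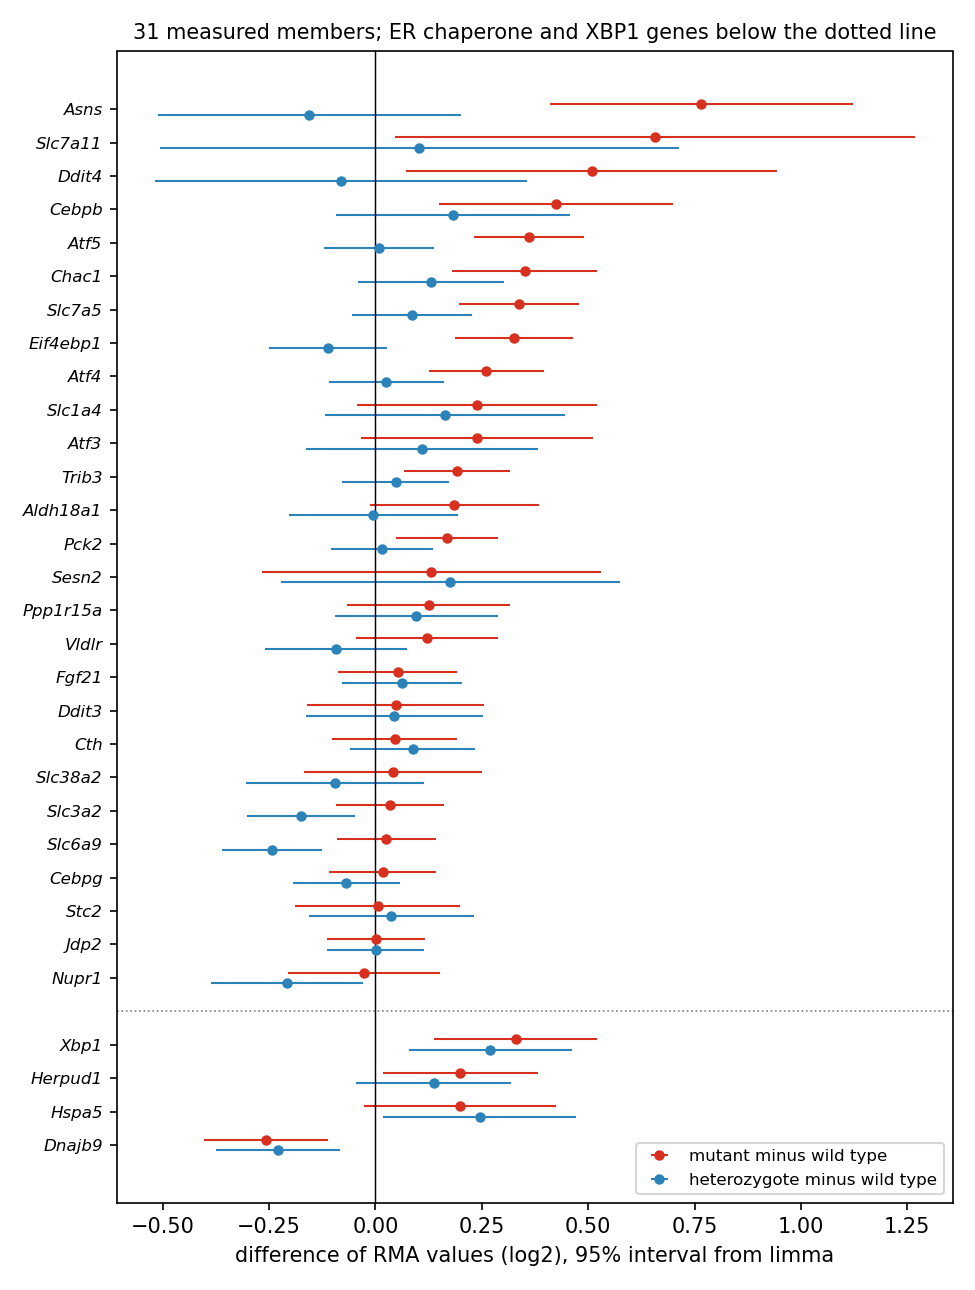
Differences of the 31 measured members from wild type on the log2 scale, mutant in red and heterozygote in blue, as points with 95% intervals from limma that are not adjusted for the number of genes. Red points of Asns (0.77) and Atf5 (0.36) stand away from their blue ones (-0.16 and 0.01), while those of Xbp1 (0.33 and 0.27) and Dnajb9 (-0.26 and -0.23) lie side by side.

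The regulators come first. Atf4 encodes the factor at the centre of the pathway, and its transcript was at 8.58, 8.61, 8.54 and 8.47 in mutants, 8.23, 8.36, 8.33 and 8.33 in heterozygotes, and 8.35, 8.44, 8.19 and 8.18 in wild type. The lowest mutant array was above the highest control array by a small margin. Atf4 rose by 0.26 against wild type (SE 0.06, adjusted p = 0.0196), while against heterozygotes its difference of 0.23 was not called (adjusted p = 0.0674). The call against wild type ended without wild-type replicate 3 or 4 (adjusted p up to 0.0681).

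Atf5, a related factor that is also controlled by translation and is tied to mitochondrial stress, was at 7.89, 7.90, 8.04 and 8.06 in mutants, 7.69, 7.67, 7.50 and 7.62 in heterozygotes, and 7.69, 7.60, 7.62 and 7.54 in wild type. Every mutant array was above every control array. Atf5 rose 1.28-fold against wild type (log2 difference 0.36, SE 0.06, adjusted p = 0.00279) and by 0.35 against heterozygotes (adjusted p = 0.00848).

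Trib3 encodes a pseudokinase that restrains ATF4 and the kinase AKT. Its mutant arrays read 7.07, 7.19, 7.12 and 7.27, its heterozygotes 7.05, 7.02, 7.05 and 6.95, and its wild types 7.05, 6.94, 7.03 and 6.86. Every mutant array was above every control array, yet the gap was narrow and the difference of 0.19 from wild type was not called (adjusted p = 0.0542). It passed without mutant replicate 1 or wild-type replicate 1 (adjusted p down to 0.0356).

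The regulators most often read as signs of stress-induced cell death were not called. Ddit3, which encodes CHOP, was at 8.11, 7.73, 7.80 and 8.19 in mutants, 7.84, 8.09, 7.98 and 7.91 in heterozygotes, and 7.92, 7.95, 7.78 and 7.98 in wild type. Mutants 1 and 4 lay above all 8 control arrays, mutant 2 below them all, and mutant 3 at their low end. The difference of 0.05 had a 95% interval of -0.16 to 0.26, so with 4 arrays per group shifts within that range are not excluded. Ppp1r15a, which encodes GADD34, the subunit that brings a phosphatase to eIF2, differed by 0.13 (interval -0.07 to 0.32). Atf3, a stress-induced repressor, differed by 0.24 (adjusted p = 0.272), and by 0.15 without mutant replicate 3.

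Cebpb, a C/EBP partner of ATF4 that also acts in inflammation, was at 7.50, 7.73, 7.96 and 7.17 in mutants, 7.20, 7.33, 7.40 and 7.46 in heterozygotes, and 7.30, 7.12, 7.09 and 7.15 in wild type. Mutants 1 to 3 exceeded every control array and mutant 4 lay among the wild types. Its difference of 0.42 from wild type just missed the threshold (adjusted p = 0.0529) and passed without mutant replicate 4 (adjusted p = 0.00447). Without mutant replicate 3 it was 0.30 (adjusted p = 0.115), and without mutants 2 and 3 it was 0.17 (adjusted p = 0.381).

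Cebpg, the small C/EBP protein that pairs with ATF4 on amino acid genes, differed by 0.02 (interval -0.11 to 0.14). Jdp2, a repressor of the AP-1 family, differed by 0.00 (interval -0.11 to 0.12). Nupr1, a small stress-induced nuclear protein, differed by -0.03 (interval -0.21 to 0.15). Jdp2 and Nupr1 carry the motif letters shown above.

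Among enzymes, Asns showed the largest change of the set. It encodes asparagine synthetase, which makes asparagine from aspartate and glutamine and is a standard readout of ATF4. Mutants were at 9.17, 8.73, 9.18 and 9.65, heterozygotes at 8.31, 8.46, 7.91 and 8.37, and wild types at 8.47, 8.27, 8.28 and 8.65. All mutants exceeded all controls, though mutant replicate 2 was only just above wild-type replicate 4. Asns rose 1.70-fold against wild type (log2 difference 0.77, SE 0.17, adjusted p = 0.0115) and 1.89-fold against heterozygotes (difference 0.92, adjusted p = 0.0108).

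Chac1 encodes a cytosolic enzyme that degrades glutathione. Its arrays read 7.90, 7.52, 7.75 and 7.91 in mutants, 7.51, 7.57, 7.57 and 7.55 in heterozygotes, and 7.49, 7.28, 7.50 and 7.42 in wild type. Mutants were above wild type throughout, with mutant replicate 2 level with the heterozygotes, which themselves lay just above wild type. Chac1 rose 1.28-fold against wild type (0.35, SE 0.08, adjusted p = 0.0143), a call lost without wild-type replicate 2 (adjusted p = 0.0503). Against heterozygotes its difference of 0.22 was not called (adjusted p = 0.179) and passed without mutant replicate 2 (adjusted p = 0.027).

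Pck2, the mitochondrial form of phosphoenolpyruvate carboxykinase, had mutant arrays at 8.39, 8.43, 8.61 and 8.43, heterozygotes at 8.33, 8.27, 8.33 and 8.32, and wild types at 8.35, 8.35, 8.28 and 8.22. All mutants were above all controls, but by little, and the difference of 0.17 was not called (adjusted p = 0.0756). Aldh18a1, which begins proline synthesis from glutamate, differed by 0.19 (adjusted p = 0.239), with mutant replicate 2 at 7.11 and the other mutants at 7.30 to 7.62. It passed without that array (adjusted p = 0.0368). Cth, which makes cysteine from cystathionine, was high in every group at 11.14 to 11.49 and differed by 0.05 (interval -0.10 to 0.19).

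**Figure D2:**
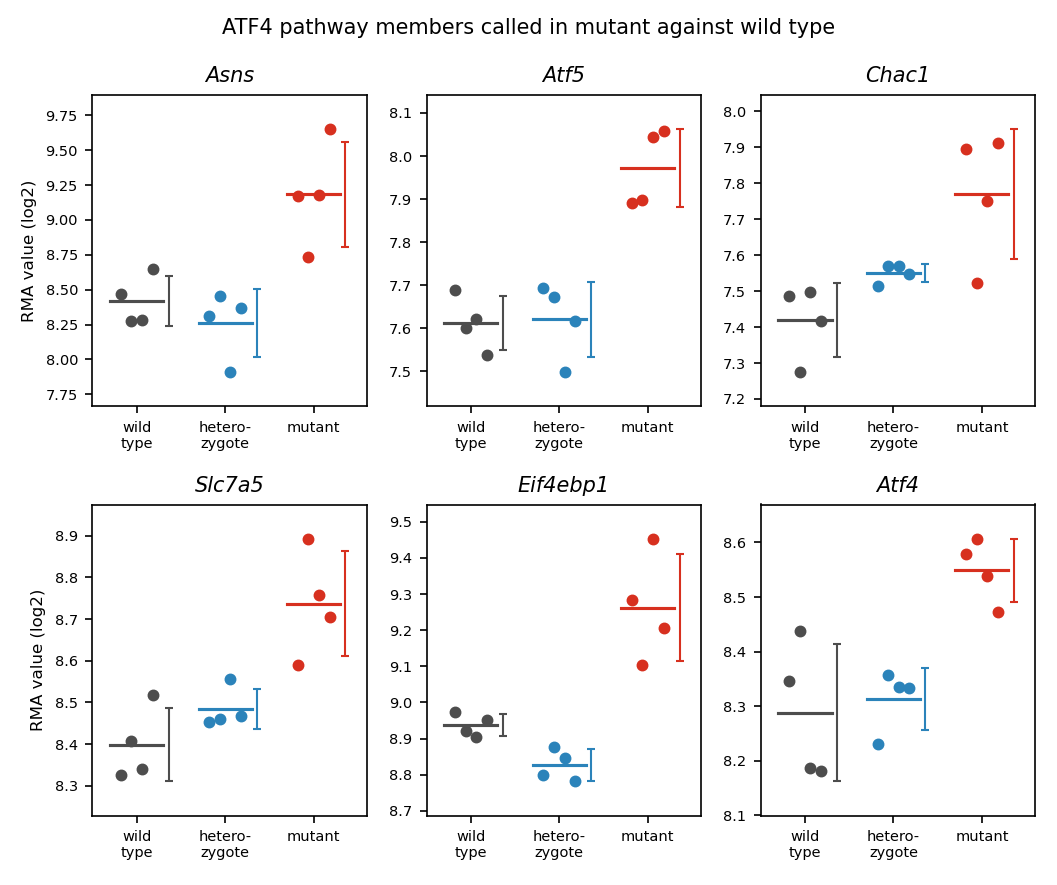
RMA values (log2) of 6 ATF4 pathway genes by genotype, each point 1 array, with the group mean as a line and 1 SD as a bar beside it. All 6 were called in mutants against wild type. For 5 of them the 4 mutant arrays stand above the 8 control arrays, and for Chac1 mutant replicate 2 (7.52) lies among the heterozygotes.

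Of 6 amino acid transporters, 1 was called against wild type, or 16.7%, where 9.66% of all genes were. Slc7a5, the light chain LAT1 that carries large neutral amino acids such as leucine, was at 8.59, 8.89, 8.76 and 8.70 in mutants, 8.45, 8.46, 8.56 and 8.47 in heterozygotes, and 8.33, 8.41, 8.34 and 8.52 in wild type. All mutants exceeded all controls. It rose 1.26-fold against wild type (0.34, SE 0.07, adjusted p = 0.00657). Its 0.25 against heterozygotes was not called (adjusted p = 0.063) and passed without mutant replicate 1 (adjusted p = 0.0281).

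Slc3a2, the heavy chain 4F2hc that pairs with LAT1 and with xCT, was abundant in all groups. Mutants were at 12.45, 12.44, 12.34 and 12.63, heterozygotes at 12.21, 12.25, 12.27 and 12.30, and wild types at 12.40, 12.44, 12.39 and 12.50. Mutants and wild types overlapped, and heterozygotes were below both. The difference was 0.03 against wild type (interval -0.09 to 0.16) and 0.21 against heterozygotes (adjusted p = 0.0811, and 0.0409 without mutant replicate 3).

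Slc6a9, the glycine transporter GLYT1, was at 9.66, 9.46, 9.70 and 9.55 in mutants, 9.30, 9.32, 9.33 and 9.35 in heterozygotes, and 9.54, 9.56, 9.55 and 9.61 in wild type. Heterozygotes were the low group, and mutants straddled wild type. It was called against heterozygotes (difference 0.27, adjusted p = 0.0197) with 0.03 against wild type (interval -0.09 to 0.14). That call ended when any 1 heterozygote was left out (adjusted p up to 0.0651).

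Slc7a11, the cystine carrier xCT, had 1 extreme array. Mutants were at 5.56, 7.42, 6.15 and 5.85, heterozygotes at 5.61, 5.63, 5.93 and 5.60, and wild types at 5.44, 5.63, 5.65 and 5.62. Mutant replicate 2 was far above the rest, and mutants 1 and 4 lay within the range of the controls. Mutant 4 did so only through heterozygote replicate 3. The difference of 0.66 had an interval of 0.05 to 1.27 and was not called (adjusted p = 0.171). Without mutant replicate 2 it was 0.27 (adjusted p = 0.216).

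The same array held the highest mean of the 7 neutrophil markers, 7.47, against 5.95 to 6.22 on the other mutant arrays and 5.95 to 6.21 in controls. It was also highest in the 8 macrophage and monocyte markers, at 8.42, where the other mutants ranged from 7.52 to 8.08, heterozygotes from 7.51 to 8.07 and wild types from 7.44 to 7.67. Of these lists, 0 of 7 and 3 of 8 markers were called in mutants against wild type (2 higher, 1 lower), where 9.66% of all genes were. Their part in the level of Slc7a11 was not tested. Slc1a4, the neutral amino acid exchanger ASCT1, differed by 0.24 (adjusted p = 0.291), with mutants 1 and 4 at 8.59 and 8.47 and mutants 2 and 3 at 8.09 and 7.94. Without mutant replicate 1 the difference was 0.13. Slc38a2, the sodium-coupled carrier SNAT2, differed by 0.04 (interval -0.17 to 0.25).

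Of the growth brakes, Eif4ebp1 was called against both controls. It encodes 4E-BP1, which blocks cap-dependent translation when mTORC1 is inactive. Mutants were at 9.28, 9.10, 9.45 and 9.21, heterozygotes at 8.80, 8.88, 8.85 and 8.78, and wild types at 8.97, 8.92, 8.90 and 8.95. All mutants stood clear of all controls, and heterozygotes were under wild type throughout. Eif4ebp1 rose 1.25-fold against wild type (0.32, SE 0.06, adjusted p = 0.00745) and 1.35-fold against heterozygotes (0.44, adjusted p = 0.00372).

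Ddit4 encodes REDD1, an inhibitor of mTORC1 that also responds to low oxygen and to glucocorticoids. Its mutants were at 7.92, 8.57, 9.05 and 7.79, its heterozygotes at 7.78, 7.72, 7.72 and 7.76, and its wild types at 7.72, 7.92, 7.85 and 7.82. Mutants 2 and 3 were high, and mutants 1 and 4 lay within or next to the controls. The difference of 0.51 was not called (adjusted p = 0.14) and passed without mutant replicate 4 (adjusted p = 0.0325). Without mutant replicate 3 it was 0.27, and without mutants 2 and 3 it was 0.03. Sesn2, which senses leucine upstream of mTORC1, had mutants from 8.32 to 9.23, heterozygotes from 8.33 to 8.98 and wild types from 8.34 to 8.83. Mutant replicate 3 was the highest of the 12 arrays, and the other mutants overlapped the controls. The difference was 0.13 (interval -0.27 to 0.53) and turned to -0.04 without that array.

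**Figure D3:**
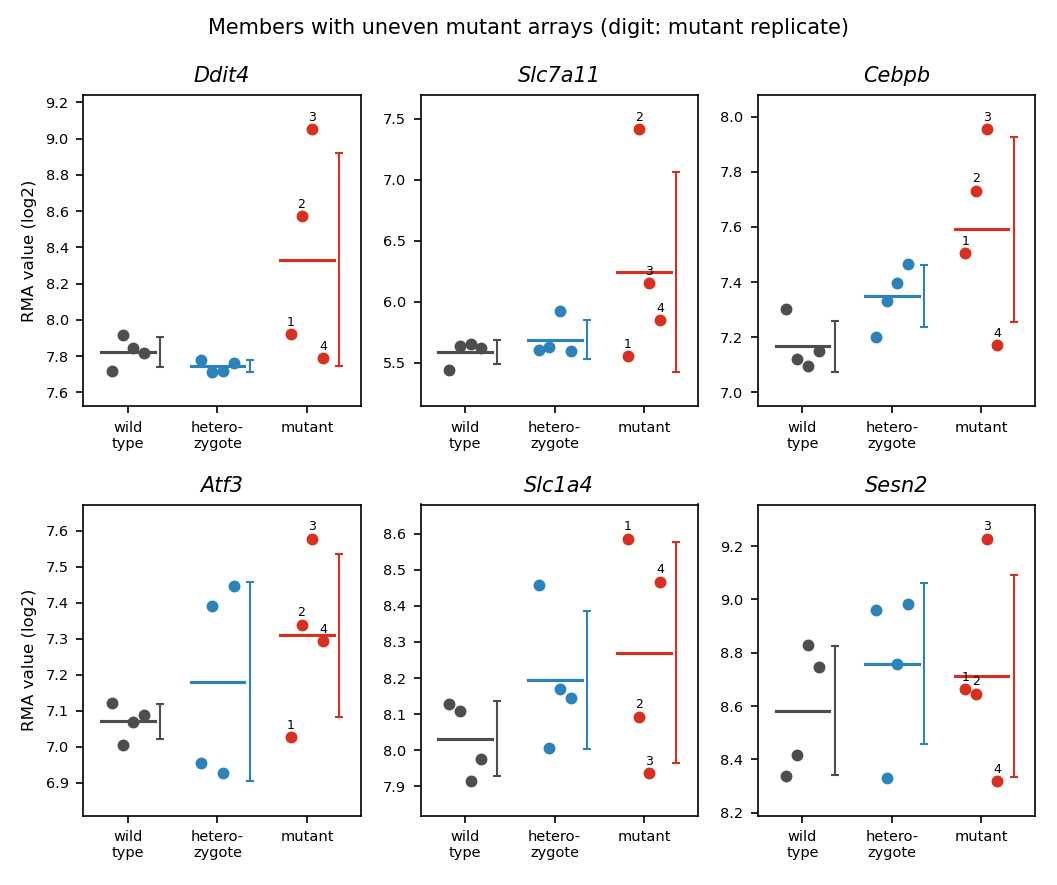
RMA values (log2) of 6 members chosen after their values were seen because their mutant arrays were uneven, each point 1 array and each digit a mutant replicate, with group means as lines and 1 SD as bars. Mutant replicate 3 is highest for Ddit4 (9.05), Cebpb (7.96), Atf3 (7.58) and Sesn2 (9.23), mutant replicate 2 for Slc7a11 (7.42) and mutant replicate 1 for Slc1a4 (8.59).

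The measured secreted factors of the pathway were not called, and Gdf15 was not analysed. Fgf21, a hormone that ATF4 is known to raise in liver, had mutants at 6.80, 6.62, 6.73 and 6.83, heterozygotes at 6.81, 6.75, 6.79 and 6.66, and wild types at 6.84, 6.65, 6.69 and 6.58. The groups overlapped fully (difference 0.05, interval -0.09 to 0.19). Stc2, the secreted glycoprotein stanniocalcin-2, differed by 0.01 (interval -0.19 to 0.20). Over the 12 arrays Fgf21 averaged 6.73 and Stc2 7.20, both under the median of all gene means, 7.55. Vldlr, a lipoprotein receptor of the cell surface, differed by 0.12 from wild type (interval -0.05 to 0.29) and by 0.22 from heterozygotes (adjusted p = 0.18). The latter passed without mutant replicate 3 (adjusted p = 0.0402).

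Which mutant was highest depended on the member. Of the 27 ATF4 pathway genes, mutants 1, 2, 3 and 4 were the highest mutant array for 5, 5, 7 and 10. Asns peaked in mutant 4, Atf4, Slc7a5 and Slc7a11 in mutant 2, and Eif4ebp1, Pck2 and Ddit4 in mutant 3. Averaged over the 27 genes, each mutant array was above the wild-type mean, by 0.17, 0.21, 0.26 and 0.19, while heterozygotes ranged from -0.01 to 0.03 and wild types from -0.01 to 0.01. Given how the list was drawn up, this shift is a description.

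The 4 ER genes follow, with a heterozygote value beside each. Xbp1, the factor of the IRE1 branch, was at 10.35, 10.58, 10.82 and 10.58 in mutants, 10.63, 10.55, 10.54 and 10.37 in heterozygotes, and 10.39, 10.22, 10.16 and 10.25 in wild type. Mutants and heterozygotes shared 1 range, mostly above wild type, with mutant replicate 1 and heterozygote replicate 4 inside the wild-type range. Xbp1 rose 1.26-fold in mutants against wild type (0.33, SE 0.09, adjusted p = 0.0335), with 0.27 in heterozygotes (adjusted p = 0.274) and 0.06 between mutants and heterozygotes (interval -0.13 to 0.25).

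Dnajb9, an ER co-chaperone (ERdj4) and an XBP1 target, was at 9.81, 9.70, 9.97 and 9.79 in mutants, 9.77, 9.84, 9.90 and 9.88 in heterozygotes, and 9.95, 10.04, 10.09 and 10.23 in wild type. Heterozygotes lay wholly under wild type and mutants almost wholly. Dnajb9 fell by 0.26 in mutants against wild type (SE 0.07, adjusted p = 0.0293), with -0.23 in heterozygotes (adjusted p = 0.23) and -0.03 between them (interval -0.17 to 0.12). Its direction was thus opposite to that of Xbp1.

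The calls of both genes were close to the threshold and ended when any of several arrays was left out singly. That of Xbp1 ended without mutant replicate 2, 3 or 4 or wild-type replicate 2, 3 or 4 (adjusted p up to 0.0894). That of Dnajb9 ended without mutant replicate 1, 2 or 4 or wild-type replicate 2, 3 or 4 (adjusted p up to 0.0953).

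Hspa5 encodes BiP, the main ER chaperone, and carries the ER stress element shown above. It was at 11.41, 11.69, 11.80 and 11.55 in mutants, 11.69, 11.93, 11.50 and 11.51 in heterozygotes, and 11.55, 11.41, 11.25 and 11.45 in wild type. The groups overlapped, and the highest array was a heterozygote. Its difference was 0.20 in mutants (adjusted p = 0.272) and 0.25 in heterozygotes (adjusted p = 0.4).

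Herpud1, a membrane protein of ER-associated degradation, was at 11.95, 11.89, 12.11 and 11.79 in mutants, 11.66, 11.83, 11.97 and 12.03 in heterozygotes, and 11.62, 11.78, 11.80 and 11.74 in wild type. Mutant replicate 4 lay among the wild types and both other groups reached well above them. The difference was 0.20 in mutants (adjusted p = 0.163) and 0.14 in heterozygotes (adjusted p = 0.564).

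All 4 ER genes had their highest mutant value in mutant replicate 3, the array that stood apart on the first principal component. Averaged over these genes, the mutants were at 0.01, 0.10, 0.30 and 0.06 above the wild-type mean and heterozygotes at 0.07 to 0.17. Without mutant replicate 3 the median difference of the ER genes from wild type was 0.14. Several marker lists had their lowest mean on that array, among them distal tubule (9.21), S1 and S2 (12.09), S3 (8.78) and endothelium (8.80). Their part in these values was not tested.

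**Figure D4:**
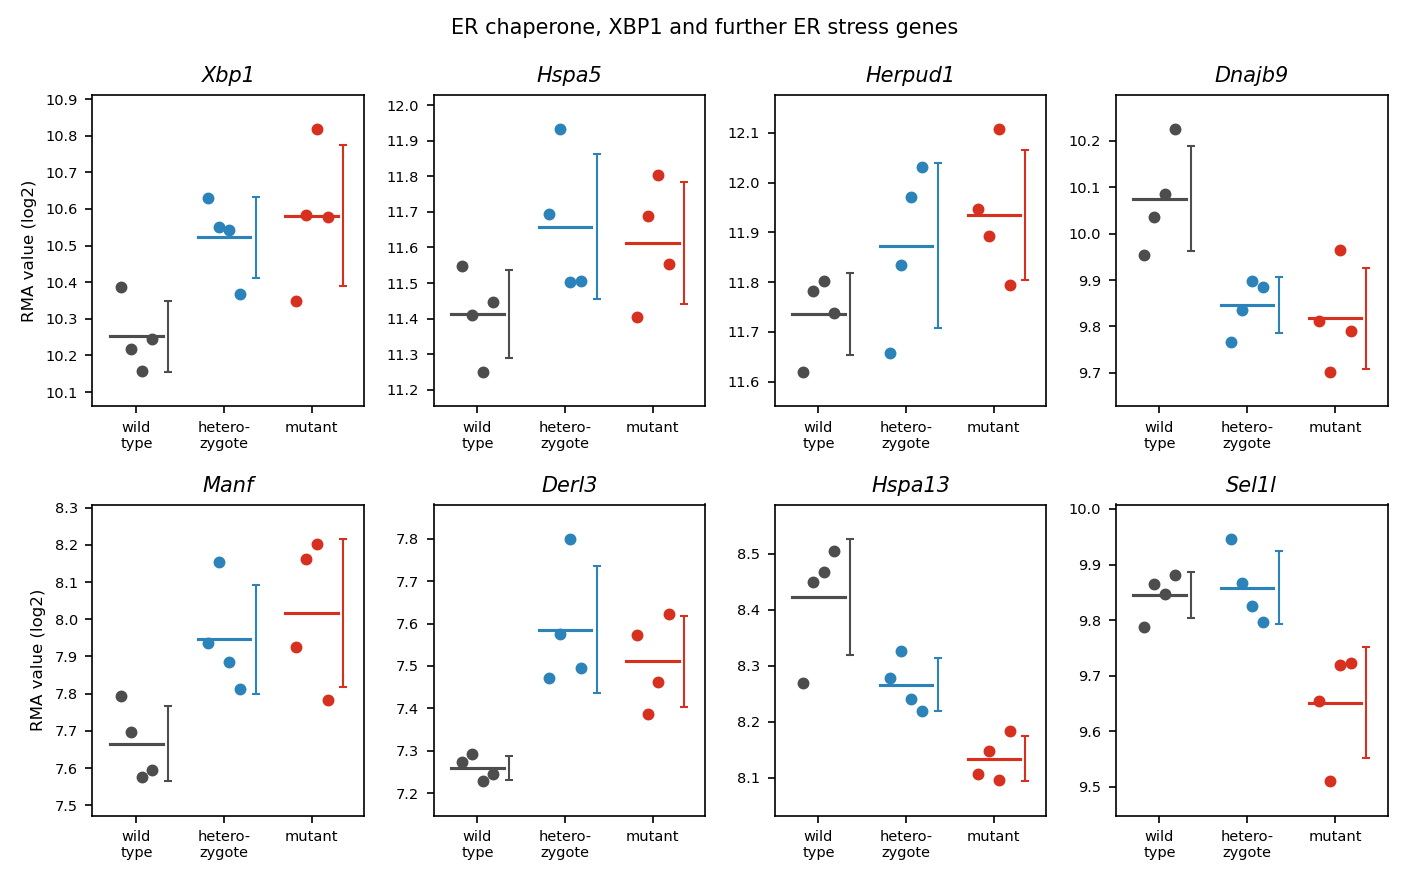
RMA values (log2) by genotype for the 4 ER members and 4 genes of a wider ER stress list, each point 1 array, with group means as lines and 1 SD as bars. In Xbp1, Manf and Derl3 the heterozygotes lie with the mutants above wild type by their means, and in Dnajb9 (mutant mean 9.82, heterozygote 9.85, wild type 10.08) both lie under it. In Sel1l the heterozygote mean (9.86) lies by that of wild type (9.85), above mutants (9.65), and in Hspa13 it lies between them.

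In heterozygotes against wild type, 0 members were called by limma (0.135% of all genes were), and 6 had an unadjusted p under 0.05 (11.3% of all genes). These were Xbp1, Hspa5, Dnajb9, Slc6a9, Slc3a2 and Nupr1. For 4 members (Dnajb9, Slc6a9, Slc3a2 and Eif4ebp1) all heterozygote arrays lay under all wild types, where 5.26% of all genes did so. The median difference was 0.03 for ATF4 pathway genes and 0.19 for the ER genes (all genes, 0.01). Asns had -0.16 (interval -0.51 to 0.20) and Atf5 had 0.01 (interval -0.12 to 0.14). In the order of group means, mutants were highest for 22 of 27 ATF4 pathway genes and 2 of 4 ER genes, against 35.3% of all genes.

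A wider list of 24 ER stress genes, given for the rest of that pathway, was also split. Against wild type, 2 were called higher and 4 lower in mutants (2.96% and 6.69% of all genes), with a median difference of -0.01. Manf, a secreted ER protein released under stress, rose by 0.35 (adjusted p = 0.0358) and Derl3, of the retrotranslocation machinery, by 0.25 (adjusted p = 0.0452). Their heterozygotes had 0.28 and 0.33, neither called (adjusted p = 0.292 and 0.111).

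Hspa13, an ER-associated chaperone of the Hsp70 family, fell by 0.29 (adjusted p = 0.00609), and Sel1l, the scaffold of an ER ubiquitin ligase, fell by 0.19 (adjusted p = 0.046). The remaining called pair, named after its values were seen, was the disulfide isomerase Pdia3 (-0.16) and the degradation factor Edem1 (-0.16). In heterozygotes against wild type, Hspa13 had -0.16, Sel1l 0.01, Pdia3 -0.07 and Edem1 0.002, none of them called. Heterozygotes thus lay with wild type in Sel1l and Edem1, unlike in Manf and Derl3. Against heterozygotes 0 of 24 were called by limma, with 5 at an unadjusted p under 0.05, or 20.8%, where 15.4% of all genes were. Of the 6 calls, that of Hspa13 passed without each array in turn, and those of Manf, Derl3, Sel1l, Pdia3 and Edem1 ended without 5, 9, 8, 9 and 8 of the 12 arrays, left out singly (adjusted p up to 0.123).

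Cytosolic aminoacyl-tRNA synthetases, which charge tRNAs and many of which ATF4 is known to regulate, gave 4 higher and 1 lower of 16 in mutants against wild type (2.96% and 6.69% of all genes), with a median of 0.13. Averaged over the list, mutant replicate 2 was level with the wild-type mean (0.00), and the other mutants were 0.10 to 0.17 above it. Gars rose by 0.31 (adjusted p = 0.0149), Mars1 by 0.26 (adjusted p = 0.0434) and Sars by 0.25 (adjusted p = 0.0351), for glycine, methionine and serine. The fourth, Qars for glutamine, had 0.16 and was named after its value was seen. Rars, for arginine, fell by 0.27 (adjusted p = 0.00342). Against heterozygotes 3 were higher and 0 lower (1.07% and 1.46% of all genes), with Gars at 0.36 and Mars1 at 0.37, and Cars, named after its value was seen, at 0.33. Those calls ended without 2, 3 and 8 of the 12 arrays, left out singly. The calls of Gars and Rars against wild type passed without each array in turn, while those of Mars1, Sars and Qars ended without 11, 7 and 10 of the 12 arrays, left out singly (adjusted p up to 0.118).

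Of 7 enzymes of serine synthesis and mitochondrial folate, 3 rose against wild type and 0 fell (2.96% and 6.69% of all genes): Psat1 (0.66), Mthfd2 (0.56) and Phgdh (0.29). The calls of Mthfd2 and Phgdh passed without each array in turn, and that of Psat1 (adjusted p = 0.0493) ended without 9 of the 12, left out singly. Averaged over the list, every mutant array was above every control, by 0.18 to 0.46 against the wild-type mean.

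The sensors upstream were not called. Of 14 measured genes of the eIF2 kinases, eIF2B subunits and ER sensors, 0 passed by limma in mutants against wild type and 3 had an unadjusted p under 0.05, or 21.4%, a share near that of all genes (24.4%). The smallest p was that of Eif2ak1, the heme-regulated kinase HRI that also relays mitochondrial stress, at -0.18 (adjusted p = 0.0575). Of 10 mitochondrial chaperones and proteases, Hspa9 (mortalin) rose by 0.16, and the proteases Clpp and Yme1l1 fell by 0.19 and 0.16, so 3 of 10 were called, where 9.66% of all genes were. These calls ended without 11, 6 and 10 of the 12 arrays, left out singly (adjusted p up to 0.117).

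**Figure D5:**
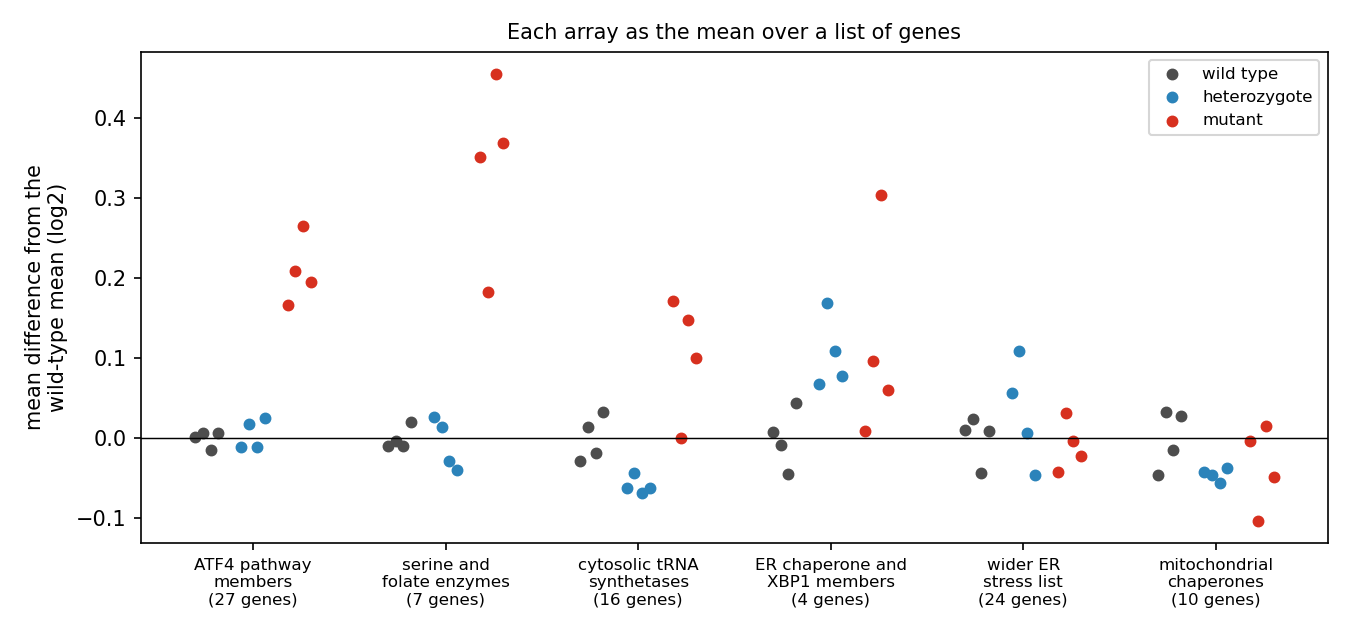
Each array as its mean difference from the wild-type mean (log2) over 6 lists of genes, 1 point per array, coloured by genotype. The 4 mutant arrays stand above all controls for the 27 ATF4 pathway genes (0.17 to 0.26) and the serine and folate enzymes (0.18 to 0.46), and they overlap the controls for the tRNA synthetases (mutant replicate 2), the 4 ER genes, the wider ER stress list and the mitochondrial chaperones.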

How the data were processed

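Total RNA of 12 mouse kidneys, 4 per genotype, was hybridised to Affymetrix mouse gene arrays. The deposited table holds log2 values for each probe set, which the authors made with RMA in the software Affymetrix Expression Console, release 1.2.1 by the submitters' processing notes. RMA equalises array distributions and compresses differences near background. Groups and replicate numbers came from the sample titles.

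Of 35552 probe sets, 21785 had 1 gene symbol in the platform annotation, and the brightest on average stood for each of 19934 genes. By Entrez identifier, 19852 matched RefSeq of GRCm38.p6, all with an equal symbol. No genome build was named for the array in the sources used here. Probe sets with several symbols or none listed (1621 and 12146) were left out.

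Groups were compared in R 4.3.3 with limma 3.58.1 and data.table, version 1.17.8 (lmFit and eBayes, 9 residual and 4.41 prior degrees of freedom), with Benjamini-Hochberg adjustment over 19934 genes and a threshold of 0.05. Confidence intervals are moderated and cover 1 gene each. The limma p-values set a difference against the moderated spread between arrays, 1 per mouse. Precision is limited by having 4 arrays in a group. The fit was tested on simulated data. Promoters were searched with Python 3.11.15 on both strands, and figures drawn with matplotlib 3.10.9.

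The members and lists were chosen with earlier results of these data known. All measured members are named. From each further list the up to 4 called genes with the largest change in mutants against wild type are named, or the gene with the smallest p.

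Alternatives were the replicate block, each array left out, only the compared groups, a group mean of at least 6, averaged probe sets of a gene, weights for arrays, a trended and robust prior, centred array medians and quantile normalisation. A fit without mutant replicates 2 and 3 was added after seeing the data.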

Additional observations from a re-analysis of the deposited data

Results flagged for a closer look

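Among 138 groups of 4 arrays, 6 had 1 array whose gap to its nearest neighbour took up most of the range of the group (past Dixon's 95% critical value for 4), a share of 4.35%, and chance gives about 1 in 20. Slc7a11 in heterozygotes had replicate 3 at 5.93, high beside the nearest array at 5.63, and in wild type replicate 1 at 5.44, low beside 5.62. Slc7a5 in heterozygotes had replicate 3 at 8.56, high beside 8.47. Slc38a2 in wild type had replicate 1 at 10.39, low beside 10.61. Hspa9 in mutants had replicate 2 at 11.80, low beside 11.94, and Yme1l1 in heterozygotes had replicate 3 at 10.003, low beside 10.03.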

How the results depend on the processing

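Each result was recomputed under up to 21 alternatives, and no difference changed its direction where it was called. Asns and Atf5 and Eif4ebp1 against wild type, and the latter pair against heterozygotes, were called under all 21, while Asns against heterozygotes was lost with only the compared groups in the fit (adjusted p = 0.0522). Members called in mutants against wild type numbered 5 to 9 with single arrays left out, 4 with only the compared groups (Atf4, Chac1, Xbp1 and Dnajb9 lost) and 5 without mutant replicates 2 and 3 (Atf4, Slc7a5, Xbp1 and Dnajb9 lost, Slc1a4 gained). Against heterozygotes they numbered 2 with only the compared groups and 3 to 6 with single arrays left out, and in heterozygotes against wild type 1 (Slc6a9) with only the compared groups, with array weights and without mutant replicates 2 and 3. Genes called in mutants against wild type numbered 1154 with only the compared groups, 1075 without mutant replicates 2 and 3, and 1019 (without wild-type replicate 4) to 1928 with single arrays left out. Against heterozygotes they numbered 191 with only the compared groups and 229 (without heterozygote replicate 4) to 592. In heterozygotes against wild type they numbered 78 with only the compared groups, 163 with array weights, 42 with a trended and robust prior, 84 without mutant replicates 2 and 3, and 5 (without wild-type replicate 4) to 67 (without wild-type replicate 1). The median of ATF4 pathway genes against wild type was 0.12 without mutant replicates 2 and 3 and 0.13 to 0.19 with single arrays left out, and in heterozygotes -0.011 to 0.045. The median of the ER genes against wild type was 0.10 without mutant replicates 2 and 3 and 0.12 with quantile normalisation of all arrays. The cause of these moves was not tested, beyond the fewer arrays in some fits.

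Same-numbered arrays of different genotypes did not deviate together (correlations from -0.24 to 0.17), so the numbers were not taken as pairs. With the replicate block, 7 members were called in mutants against wild type (Xbp1 lost), 4 against heterozygotes and 0 in heterozygotes against wild type, where 7 genes were called in all. Separate tests of further probe sets of a member could not be run, since each of the 31 had 1 probe set. Members near the bottom of the range, such as Slc7a11, are where RMA compresses differences most.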
